A study of Homo sapiens with 12 samples.

Results

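The human mitochondrial ribosomal protein genes were followed in HGC-27 cells, a line derived from an undifferentiated gastric carcinoma. Members were the genes whose symbol starts with MRPL, for the large subunit, or MRPS, for the small subunit, followed by a number and at most the letter A, B or C. The table held 76 such genes of 20345, 48 named MRPL and 28 named MRPS, and all 76 averaged 1 FPKM or more over the 12 libraries, as did 11225 genes in all. FPKM is the number of fragments mapped to a gene scaled by transcript length and by the library total, so that levels can be set side by side between genes of different length. MRPL45 and MRPS21 were not analysed here. The symbol does not always give the subunit, since MRPS18A and MRPS30 encode proteins of the large one. MRPS36 counted as a member by its symbol, although the protein is now known as a subunit of the 2-oxoglutarate dehydrogenase complex.

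Mitochondrial ribosomes translate the few proteins that mitochondrial DNA encodes, all of them core subunits of the respiratory chain and the ATP synthase. Their RNAs come from mitochondrial DNA, but every protein of both subunits is encoded in the nucleus, made in the cytosol and imported. Some of these proteins have counterparts in bacterial ribosomes, and others exist only in mitochondria. Binding sites of NRF1, of the ETS factor GABPA and of YY1 are known features of the promoters of many nuclear genes for mitochondrial proteins.

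Each of the 4 groups had 3 libraries. The first group was untreated cells whose titles carry the prefix NC and no genotype label, taken here as the WT cells of the series design, and the second was the same cells given GLUP. GLUP is a synthetic peptide that repeats the TEAD-binding element of the cofactor VGLL4 and was designed to link molecules of TEAD4, a DNA-binding transcription factor of the Hippo pathway. The other two groups were HGC-27 cells labelled TEAD4KO, untreated and with GLUP. The study's methods give a stocking buffer of HEPES and NaCl as the negative control. They speak of biological replicates without describing each library. The labels give neither the dose nor the duration of GLUP, and the study's text gives 1 dose but a different duration in its results than in its methods. The labels also do not say whether the TEAD4KO cells were 1 clone, nor whether libraries of a group came from separate cultures, so that p-values measure only the spread between these libraries.

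TEAD4 transcript was at 22.9 to 25.8 FPKM in the WT libraries and at 26.0 to 30.1 in those labelled TEAD4KO, so that the transcript did not show the loss of the gene and the groups are called by their labels. On the first principal component, which held 39.7% of the variance over all genes tested, replicate 1 of the untreated TEAD4KO group (-0.962) and replicate 16 of the TEAD4KO group with GLUP (-5.26) lay near the WT libraries (-16.2 to -3.71) and apart from the other 4 libraries labelled TEAD4KO (9.91 to 19.8). The stomach markers MUC5AC, TFF1, GKN1 and PGC were at or near 0 in every library, as were the epithelial markers KRT18, KRT19 and EPCAM, whereas KRT8 and CDH1 of the same list had means of 5.78 and 2.75 FPKM. Of the mesenchymal markers VIM lay between 1238 and 1704 FPKM, FN1 had a mean of 6.38 and CDH2 one of 0.0846. The leukocyte markers PTPRC and CD68 and the endothelial marker VWF did not exceed 0.433 FPKM, and CD3E and CDH5 were listed at 0, while COL1A1, a collagen of fibroblasts, had a mean of 239 FPKM and HBA1 one of 41.6 with HBB listed at 0.

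The members were expressed at moderate and rather even levels. Their median was 31.7 FPKM against 10.5 over all genes tested, and 73 of the 76 had means between 10 and 100 FPKM. MRPL13, the counterpart of bacterial L13, had the highest level, with a mean of 212 FPKM over the 12 libraries, followed by MRPS24 at 102 and MRPL37, a protein found only in mitochondria, at 87.7. The lowest means were those of MRPS17 at 9.79, MRPS36 at 12.1 and MRPL30 at 12.2, a 21.7-fold range between the extremes. MRPS17 was also the member nearest to the limit of 1 FPKM, and no member lay below it. MRPL13 was read at 201 to 213 FPKM in untreated WT cells and at 180 to 207 with GLUP. In the libraries labelled TEAD4KO it was at 197 to 248 FPKM untreated and at 206 to 227 with GLUP, and these ranges overlapped between the labels in both treatments.

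The summed FPKM of the genes named MRPL was 1.91 to 2.02 times that of the genes named MRPS over the 12 libraries, with group means of 1.96 ± 0.01, 1.98 ± 0.0321, 1.97 ± 0.0208 and 1.97 ± 0.0551 (SD, n = 3 each) in the order of the groups above. The members together took up 0.753, 0.759 and 0.737% of the FPKM total in untreated WT libraries, and 0.725, 0.728 and 0.688% in WT libraries with GLUP. They took up 0.770, 0.848 and 0.802% in untreated libraries labelled TEAD4KO and 0.801, 0.790 and 0.718% in those with GLUP. The untreated TEAD4KO shares all lay above the untreated WT shares, and with GLUP 2 of the 3 did, the share of replicate 16 falling below those of WT replicates 14 and 15. In bulk RNA a change in which cells are present and a change in RNA per cell cannot be told apart.

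**Figure D1:**
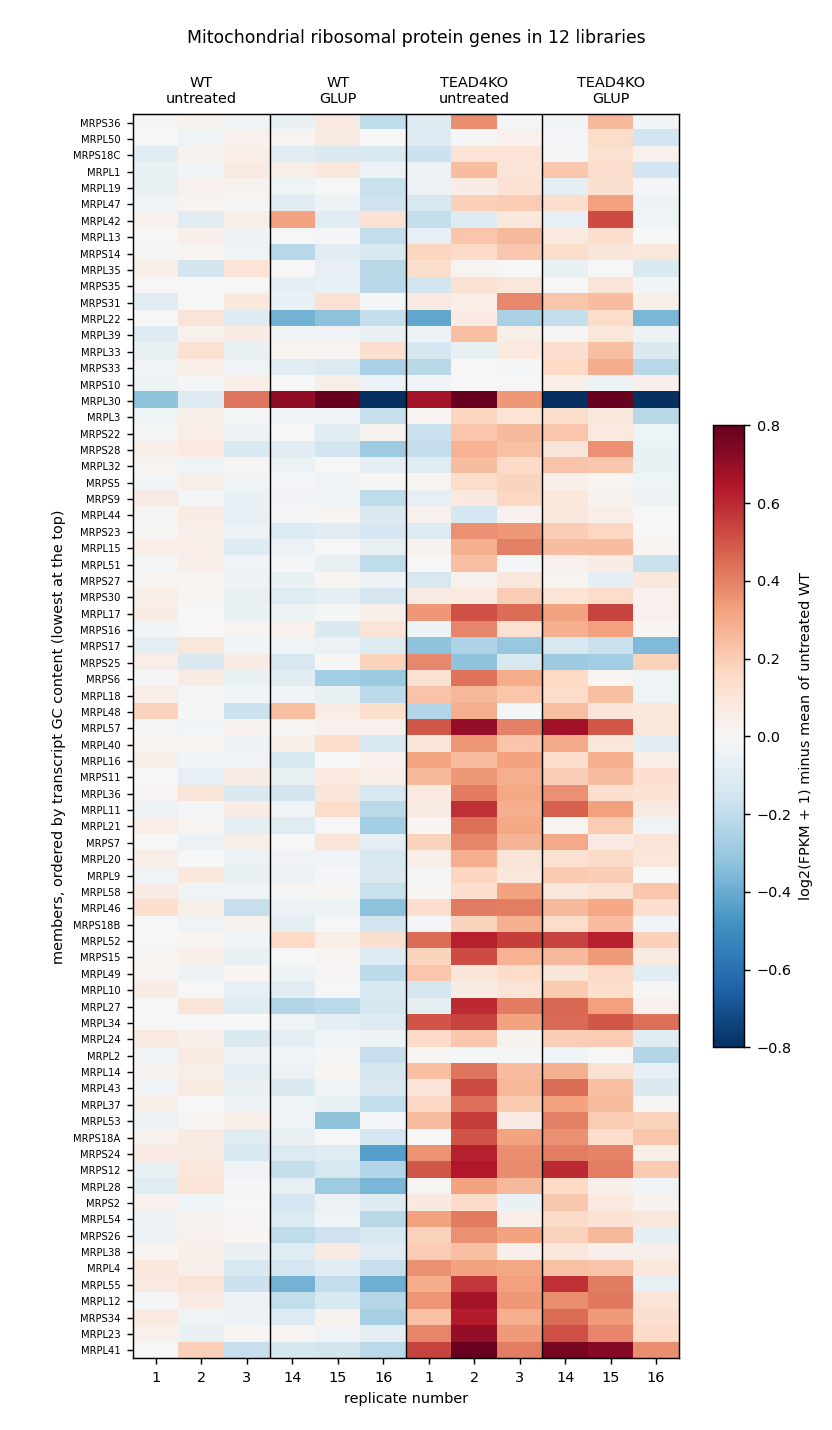
Each row is 1 of the 76 members, ordered by the GC content of its transcript from 34.8% at the top to 66.7% at the bottom, and each column is 1 of the 12 libraries. Colour gives log2(FPKM + 1) minus the mean of the 3 untreated WT libraries, limited to ±0.8, and red fills most of the lower rows in the libraries labelled TEAD4KO, more faintly in replicate 1 untreated and replicate 16 with GLUP.

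The comparison of the 2 labels without peptide asks which members differ in cells meant to lack TEAD4. In untreated libraries 13 of the 76 members were higher and 1 was lower under the TEAD4KO label than in WT (limma on log2(FPKM + 1), adjusted p under 0.05 over 11225 genes, which 5.42% of all genes passed in either direction). This was 17.1% of the members higher, against 4.92% of all genes tested, and 1.32% lower against 0.499%. The 13 were MRPL4, MRPL12, MRPL16, MRPL17, MRPL23, MRPL34, MRPL41, MRPL52 and MRPL57 of the large subunit and MRPS11, MRPS12, MRPS15 and MRPS24 of the small subunit, and the lower one was MRPS17. Differences were small, and 0 members both passed the test and differed by over 2-fold, where 0.0356% of all genes did. Differences were positive for 65 of the 76, with a median of 0.16 against 0.02 over all genes. All 3 TEAD4KO libraries lay above all 3 WT libraries for 29 members, or 38.2% against a background of 18.3%, and below them for 1 member, or 1.32% against 7.47%.

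The count rested on few libraries. Without replicate 1 of the untreated TEAD4KO group 28 members passed the test, where 10.6% of all genes did, and without both TEAD4KO libraries that lay near WT 40 did, where 19.9% of all genes did. Those libraries were picked on the same values, so the larger counts carry no added weight. Leaving out replicate 2 of that TEAD4KO group gave 4, and leaving out WT replicate 1, 2 or 3 gave 5, 6 or 2. For these lower counts no share of all genes is given, so a fall particular to the members is not shown.

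With GLUP in both arms the picture among the members was similar. In this comparison 11 members were higher and 0 lower under the TEAD4KO label, or 14.5% of the members against 4.91% of all genes higher and 0.935% lower, 5.84% in either direction. With a limit of 2-fold there were 0, against 0.0535% of all genes. The 11 were MRPL4, MRPL12, MRPL23, MRPL34, MRPL41, MRPL52 and MRPL55 of the large subunit and MRPS12, MRPS14, MRPS24 and MRPS34 of the small subunit. Log2 differences were positive for 70 of the 76, with a median of 0.19 against -0.0039 over all genes. The groups did not overlap for 37 higher members, or 48.7% against 16.7%, and for 1 lower member, or 1.32% against 12.9%. The GLUP libraries passed, weakly, the criterion by which equal numbers count as pairs, and a fit blocked on that number had 20 members higher, against 6.76% of all genes.

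Without replicate 16 of the TEAD4KO group with GLUP 35 members passed, where 17.4% of all genes did, and without both TEAD4KO libraries near WT 47 did, where 27.8% did. The count was 20 without replicate 1 of the untreated TEAD4KO group, where 9.82% of all genes passed. That library enters through the shared estimate of the spread. The count was 3 without TEAD4KO replicate 14 or 15 or WT replicate 16. It was 5 without WT replicate 14 and 7 without any 1 untreated WT library. These lower counts have no share of all genes beside them, so a fall particular to the members is not shown.

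**Figure D2:**
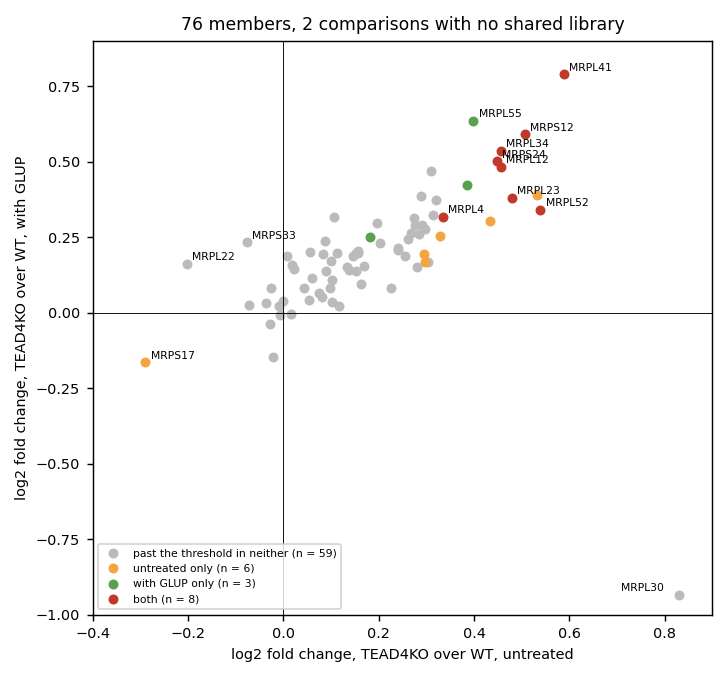
Each point is 1 of the 76 members, with the log2 difference between libraries labelled TEAD4KO and WT untreated on the horizontal axis and with GLUP on the vertical axis. Most points lie in the upper right, where both differences are positive, the 8 members past the test in both among them, while MRPL30 lies far down in the lower right.

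The 2 comparisons share no library, although 1 model gave both their estimate of the spread. Both differences were positive for 63 members, or 82.9% against 40.5% of all genes. The groups were apart and higher in both for 21, or 27.6% against 9.82%. Of the 17 members called in at least 1 comparison, 8 were called in both, which is 10.5% of the members against 3.32% of all genes. These were MRPL41, MRPS12, MRPL34, MRPS24, MRPL12, MRPL52, MRPL23 and MRPL4, all higher under the TEAD4KO label.

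MRPL34, the counterpart of the small bacterial protein L34, had the smallest adjusted p of all members in both comparisons. The untreated WT libraries read 34.9, 35 and 34.9 FPKM and the untreated libraries labelled TEAD4KO 50.0, 51.2 and 43.9. With GLUP it was at 34.1, 33.0 and 32.5 FPKM in WT and at 48.1, 49.7 and 47.8 under the TEAD4KO label. The labels did not overlap in either treatment. The log2 difference was 0.46 ± 0.06 (SE) untreated, with a limma adjusted p of 0.00229, and 0.54 ± 0.06 with GLUP, with an adjusted p of 0.000659. Dropping any 1 of the 12 libraries kept both calls.

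MRPL41, a large subunit protein without a bacterial counterpart, differed most in size among the called members. Untreated WT libraries read 13.7, 15.8 and 12 FPKM against 20.5, 25.0 and 18.6 under the TEAD4KO label. With GLUP the WT libraries were at 12.4, 12.3 and 11.7 and the TEAD4KO libraries at 24.0, 23.4 and 18.1 FPKM. Every TEAD4KO value was above every WT value. Its log2 difference was 0.59 ± 0.12 untreated (limma adjusted p = 0.0162) and 0.79 ± 0.12 with GLUP (adjusted p = 0.00329), and the untreated call did not hold in 3 of 12 fits lacking 1 library each.

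MRPS12 corresponds to bacterial S12, which takes part in reading the codon accurately. Its FPKM was 27.2, 30.3 and 27.9 in untreated WT cells and 40.6, 44.9 and 37.3 under the TEAD4KO label. With GLUP it was 24.8, 25.9 and 24.0 in WT and 43.6, 38.1 and 33.1 under the TEAD4KO label, again with no overlap. The log2 difference was 0.51 ± 0.09 untreated (limma adjusted p = 0.00872) and 0.59 ± 0.09 with GLUP (adjusted p = 0.00329), the untreated call not holding in 1 of 12 fits lacking 1 library each. MRPS24, the counterpart of bacterial S3, was at 96.0, 95.9 and 83.8 FPKM in untreated WT and at 118, 141 and 119 under the TEAD4KO label. With GLUP it was at 85.0, 85.6 and 67.2 in WT and at 122, 121 and 94.7 under the label. The groups did not overlap in either treatment, with log2 differences of 0.45 ± 0.12 (limma adjusted p = 0.0413) and 0.50 ± 0.12 (adjusted p = 0.0245). Of 12 fits lacking 1 library each, its untreated call did not hold in 7 and its GLUP call in 3.

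Among the other large subunit genes called in both, MRPL12 encodes the counterpart of the bacterial stalk protein L7/L12, which recruits translation factors. It was at 56.6, 60.0 and 55.5 FPKM in untreated WT and at 73.4, 91.7 and 73.2 under the TEAD4KO label. With GLUP the values were 49.9, 52.5 and 48.7 in WT and 74.6, 77.1 and 61.6 under the label. Log2 differences were 0.46 ± 0.10 (limma adjusted p = 0.0158) and 0.48 ± 0.10 (adjusted p = 0.0103), and the labels did not overlap. Each of these calls did not hold in 3 of 12 fits lacking 1 library each.

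MRPL23 and MRPL4 correspond to bacterial proteins that line the tunnel through which the new protein leaves the ribosome. MRPL23 was at 42.3, 39.8 and 41.7 FPKM in untreated WT and at 54.4, 67.9 and 52.6 under the TEAD4KO label, and with GLUP at 41.8, 40.4 and 39.2 against 59.4, 54.4 and 45.9. MRPL4 was at 80.0, 77.6 and 69.4 FPKM in untreated WT and at 97.8, 94.8 and 93.8 under the label, and with GLUP at 68.7, 70.8 and 66.4 against 89.0, 88.6 and 80.0. Neither gene overlapped between labels in either treatment. MRPL23 differed by 0.48 ± 0.10 (limma adjusted p = 0.0152) untreated and by 0.38 ± 0.10 (adjusted p = 0.0399) with GLUP on the log2 scale, the GLUP call not holding in 8 of 12 fits lacking 1 library each. The untreated call of MRPL23 did not hold in 3 of them. MRPL4 differed by 0.33 ± 0.06 (limma adjusted p = 0.0115) and 0.32 ± 0.06 (adjusted p = 0.0125), calls that did not hold in 1 and 4 of those fits.

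MRPL52, another protein found only in mitochondria, was at 23.2, 23.4 and 22.8 FPKM in untreated WT and at 31.9, 36.1 and 34.4 under the TEAD4KO label. With GLUP it was at 25.9, 23.9 and 25.4 in WT and at 34.1, 36.1 and 26.6 under the label. The labels did not overlap, although replicate 16 with GLUP came close to WT. Its log2 difference was 0.54 ± 0.09 untreated (limma adjusted p = 0.00649) and 0.34 ± 0.09 with GLUP (adjusted p = 0.0485), a call that did not hold in 9 of 12 fits lacking 1 library each.

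MRPS17, the counterpart of bacterial S17, was the only member called lower. It was at 10.3, 11.6 and 10.7 FPKM in untreated WT and at 8.47, 8.99 and 8.59 under the TEAD4KO label. With GLUP it was at 10.7, 10.5 and 10.0 in WT and at 9.84, 9.50 and 8.27 under the label. The labels did not overlap in either treatment. The log2 difference was -0.29 ± 0.08 untreated (limma adjusted p = 0.0463), which did not hold in 10 of 12 fits lacking 1 library each, and -0.16 ± 0.08 with GLUP, which did not pass (adjusted p = 0.216). The gene lies within the span of NIPSNAP2 on the same strand, so that the split of reads between both genes is uncertain.

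**Figure D3:**
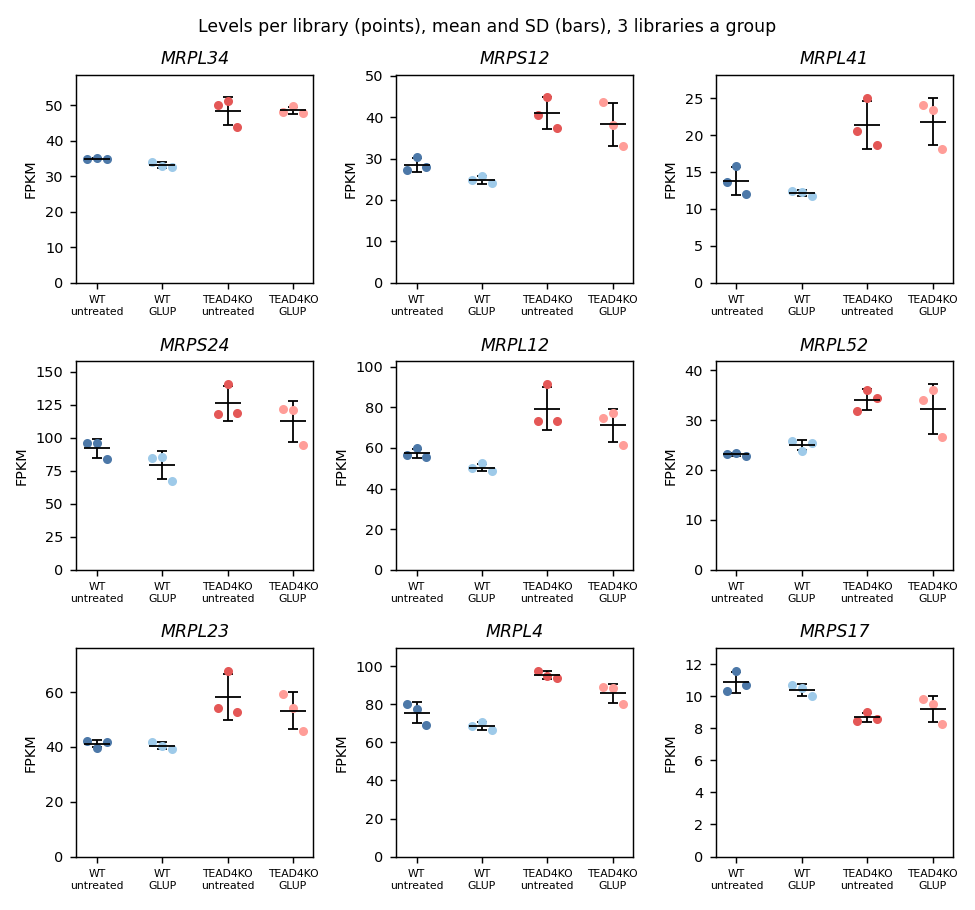
Each panel shows the FPKM of 1 member in the 12 libraries, with points for libraries, a horizontal bar for the mean and whiskers for the SD of the 3 libraries of a group. In the first 8 panels the points of the TEAD4KO label lie above those of WT in both treatments, and for MRPS17 they lie below.

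The remaining members with the most negative mean difference over both comparisons, MRPS25, MRPL30, MRPL50 and MRPL42, passed in neither. MRPS25 had log2 differences of -0.02 ± 0.16 and -0.15 ± 0.16, MRPL50 of -0.03 ± 0.08 and -0.04 ± 0.08, and MRPL42 of -0.07 ± 0.14 and 0.03 ± 0.14. All their ranges overlapped between the labels.

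Members differed in how large the change was by the GC content of their transcripts. In the 19 members with the lowest GC content, 34.8 to 42.5%, the median log2 difference under the TEAD4KO label was 0.05 untreated and 0.08 with GLUP. In the 19 with the highest, 55.1 to 66.7%, it was 0.30 and 0.31. Of the 13 higher calls in untreated libraries 0, 2, 5 and 6 fell in the 4 bins of 19 members from lowest to highest GC content, and of the 11 with GLUP 1, 0, 2 and 8. Across the 76 genes, which share libraries and are not independent, Spearman's rho between GC content and the difference was 0.616 untreated and 0.615 with GLUP, and between transcript length and the difference -0.434 and -0.465. Across 11077 tested genes with reference values rho was 0.3 and 0.198 with GC content and -0.52 and -0.478 with length. The members are also short, with a median transcript of 1242 bases against 3344 over all genes, and 68 of the 76 lay below the latter. Their median GC content was 48.9% against 48.2%.

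After removal, within each library, of the trend of all genes with GC content and length, 3 members were higher and 1 lower under the TEAD4KO label in untreated libraries, against 1.1% and 0.641% of all genes. The 3 were MRPL34, MRPL52 and MRPS11, the last named after its value was seen, and the lower one was MRPS17. With GLUP 3 were higher, MRPL34, MRPL41 and MRPS12, against 2.58% of all genes, and 0 were lower, against 1.21%. MRPL34 alone was called in both, with corrected log2 differences of 0.27 (limma adjusted p = 0.0326) and 0.38 (adjusted p = 0.00552). This was 1.32% of the members against 1.03% of all genes, a share near the background. Corrected differences of MRPL52 were 0.39 and 0.22, of MRPL41 0.21 and 0.46, of MRPS12 0.29 and 0.41 and of MRPS17 -0.37 and -0.22. The other 4 members called in both lost both calls. MRPL12 went to 0.15 and 0.22 (limma adjusted p = 0.34 and 0.12), MRPL4 to 0.07 and 0.10 (adjusted p = 0.529 and 0.282), MRPL23 to 0.15 and 0.09 (adjusted p = 0.31 and 0.455) and MRPS24 to 0.24 and 0.32 (adjusted p = 0.194 and 0.0658). The median over the members was 0.06 untreated and 0.09 with GLUP, with 47 and 60 of the 76 positive, against medians of -0.001 and 0.0059 over all genes. Within the members rho with GC content after the correction was 0.336 and 0.347, and with length -0.043 and -0.015. The GC and length trend of the libraries moved with the label, and its part in the result cannot be told apart from that of the label.

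**Figure D4:**
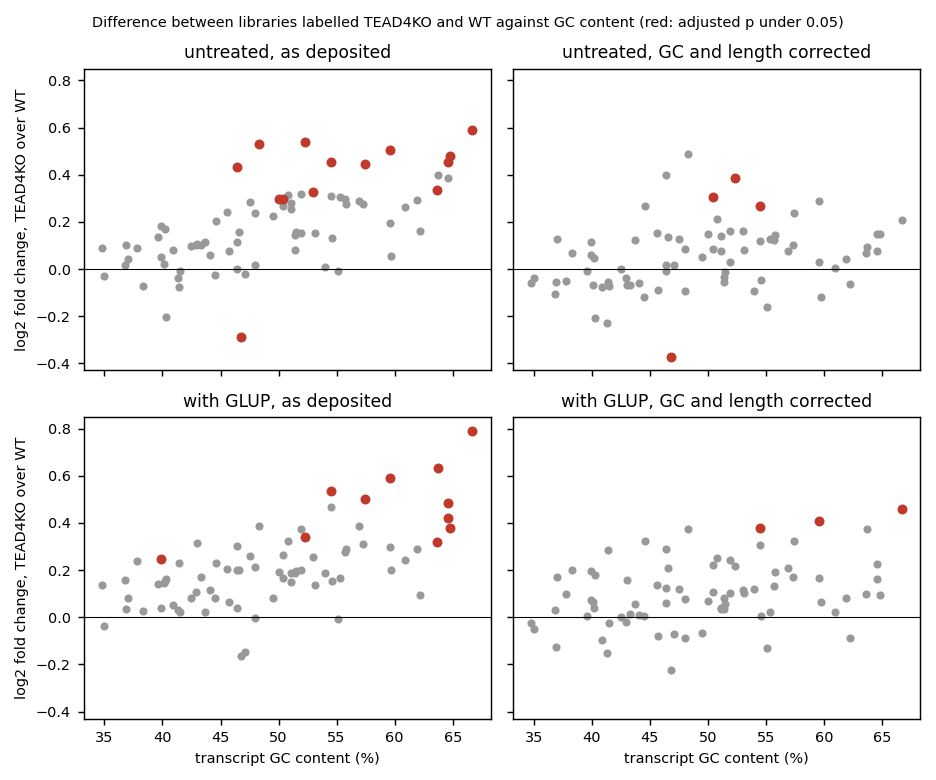
Transcript GC content in percent is plotted on the horizontal axis for 75 members, with MRPL30 left out. The vertical axis gives the log2 difference between libraries labelled TEAD4KO and WT. Upper panels are untreated and lower panels with GLUP, the left before and the right after the correction for GC content and length, and red points have an adjusted p under 0.05. The slope from lower left to upper right on the left is weaker on the right, which hold 4 and 3 red points.

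Promoter windows, from 250 bases before to 50 after an annotated start, were found by symbol in RefSeq (GRCh38.p14, a different build from that of the expression table) for 67 of the 76 members, in 83 windows. Each was searched on both strands for 5 motifs that do not contain each other. YY1 (AAGATGGCG) was in 15.7% of member windows against 1.75% of 35116 windows of all genes, ETS/GABPA (CCGGAAGT) in 16.9% against 4.14% and NRF1 (GCGCATGC) in 7.23% against 3.05%. The E-box (CACGTG) was in 9.64% against 7.26%. The TEAD core (CATTCC) was in 14.5% against 14%, or in 11 of the 67 members. Median GC content was 60.3% in member windows and 58.7% in all. Windows are shown for 4 members with the largest corrected differences among those called higher after the GC and length correction, with MRPS17 as the one called lower. They are also shown for MRPS11, the fifth called higher there, beside MRPL46 on the other strand. The starts of these 2 genes lie 63 bases apart in the GRCh37 annotation, and the RefSeq starts of the windows shown lie farther apart. Motif matches are in capitals, and a window without capitals holds none of the 5. The windows are chr19:17292323-17292622 (+) and chr19:17305622-17305921 (+) for MRPL34, the most upstream and the most downstream of its 4 annotated starts, chr9:137551629-137551928 (+) for MRPL41, chr19:38930694-38930993 (+) for MRPS12, the first of 2, chr14:22829637-22829936 (+) for MRPL52, chr15:88467458-88467757 (+) for MRPS11, chr15:88467339-88467638 (-) for MRPL46 and chr7:55951627-55951926 (+) for MRPS17.
MRPL34 upstream: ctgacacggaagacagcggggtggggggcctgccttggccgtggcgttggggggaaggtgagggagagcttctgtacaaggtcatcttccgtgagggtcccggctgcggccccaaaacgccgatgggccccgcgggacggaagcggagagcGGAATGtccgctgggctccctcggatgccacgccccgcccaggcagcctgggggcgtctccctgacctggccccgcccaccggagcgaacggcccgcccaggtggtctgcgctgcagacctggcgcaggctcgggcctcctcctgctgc
MRPL34 downstream: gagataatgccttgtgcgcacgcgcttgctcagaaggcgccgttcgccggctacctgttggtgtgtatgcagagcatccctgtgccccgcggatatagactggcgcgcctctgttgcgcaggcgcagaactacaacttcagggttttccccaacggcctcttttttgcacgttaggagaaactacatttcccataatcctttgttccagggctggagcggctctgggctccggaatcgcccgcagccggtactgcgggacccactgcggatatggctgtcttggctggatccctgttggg
MRPL41: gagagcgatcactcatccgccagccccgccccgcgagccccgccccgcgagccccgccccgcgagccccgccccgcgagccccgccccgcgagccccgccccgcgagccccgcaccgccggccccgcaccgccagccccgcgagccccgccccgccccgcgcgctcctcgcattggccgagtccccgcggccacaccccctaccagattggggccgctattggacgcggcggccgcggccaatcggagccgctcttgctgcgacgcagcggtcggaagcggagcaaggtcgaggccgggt
MRPS12: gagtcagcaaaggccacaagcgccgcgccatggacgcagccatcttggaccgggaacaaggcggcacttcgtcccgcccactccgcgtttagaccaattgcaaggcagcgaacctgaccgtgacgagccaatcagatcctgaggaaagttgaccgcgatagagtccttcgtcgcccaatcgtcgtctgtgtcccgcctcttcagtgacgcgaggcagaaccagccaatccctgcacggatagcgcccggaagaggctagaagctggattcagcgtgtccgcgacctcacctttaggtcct
MRPL52: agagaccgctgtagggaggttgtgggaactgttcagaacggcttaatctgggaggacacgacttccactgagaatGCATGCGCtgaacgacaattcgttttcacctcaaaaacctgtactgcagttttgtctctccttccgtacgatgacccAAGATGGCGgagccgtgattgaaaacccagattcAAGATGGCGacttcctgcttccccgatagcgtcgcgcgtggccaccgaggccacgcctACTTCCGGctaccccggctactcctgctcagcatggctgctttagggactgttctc
MRPS11: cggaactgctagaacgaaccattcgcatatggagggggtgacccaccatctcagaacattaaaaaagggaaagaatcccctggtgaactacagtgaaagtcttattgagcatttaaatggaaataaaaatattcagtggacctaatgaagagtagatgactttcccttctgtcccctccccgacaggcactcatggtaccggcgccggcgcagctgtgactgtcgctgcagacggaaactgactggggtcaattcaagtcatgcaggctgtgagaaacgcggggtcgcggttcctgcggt
MRPL46: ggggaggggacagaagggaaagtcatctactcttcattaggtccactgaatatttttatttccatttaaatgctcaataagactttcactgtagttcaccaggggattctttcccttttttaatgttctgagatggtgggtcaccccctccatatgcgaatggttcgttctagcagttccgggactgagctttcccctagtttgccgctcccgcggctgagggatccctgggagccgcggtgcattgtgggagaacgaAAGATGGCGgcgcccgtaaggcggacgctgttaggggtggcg
MRPS17: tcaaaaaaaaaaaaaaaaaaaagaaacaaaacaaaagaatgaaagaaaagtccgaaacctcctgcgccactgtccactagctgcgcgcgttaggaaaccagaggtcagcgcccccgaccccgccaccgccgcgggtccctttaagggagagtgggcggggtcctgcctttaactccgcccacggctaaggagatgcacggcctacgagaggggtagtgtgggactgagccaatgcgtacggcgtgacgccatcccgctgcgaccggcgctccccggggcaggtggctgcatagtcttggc
In the upstream MRPL34 window the capitals mark a reverse TEAD core, and the windows of its other 3 starts held none of the 5 motifs. In the MRPL52 window the capitals mark, from left to right, a reverse NRF1 motif, a pair of YY1 motifs and a reverse ETS/GABPA motif, and in the MRPL46 window a YY1 motif. The MRPL41 window has 80.7% GC, the most of the windows shown.

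In the GRCh37 annotation a start of another gene on the opposite strand lay within 1000 bases for 24 members, or 31.6%, against 16.4% of all genes tested. MRPL46 and MRPS11 form such a pair and had close values under the TEAD4KO label in untreated libraries, by 0.32 and 0.30 on the log2 scale, MRPS11 passing (limma adjusted p = 0.0161) and MRPL46 not (adjusted p = 0.0982). For MRPS12, 181 bases from SARS2, the partner differed by 0.13 and did not pass (adjusted p = 0.436). Neighbours of other members went both ways, with MRPL54 and APBA3 at 0.26 and 0.42 but MRPL57 and SKA3 at 0.53 and -0.06. Apart from MRPS11, no neighbour passed.

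The peptide comparisons ask which members respond to GLUP in each kind of cell. In WT cells GLUP changed 0 of the 76 members by limma's adjusted p, where 0.00891% of all genes passed. At an unadjusted p under 0.05 there were 5 members, all lower, against 1.31% of all genes lower. With GLUP the log2 difference was negative for 62 of the 76 and for 5178 of all 11225 genes, with medians of -0.07 and 0.0088. It was also negative for 71 of 78 cytosolic ribosomal protein genes and 60 of 77 nuclear oxidative phosphorylation subunits, so that this lean was not particular to the members. All 3 GLUP libraries lay below all 3 untreated libraries for 15 members, or 19.7% against 7.16%, and above them for 1, or 1.32% against 10.2%. The median was -0.03 without replicate 16 and was -0.10 without replicate 15.

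MRPL28, MRPS6 and MRPS14, all with bacterial counterparts, had the smallest p-values. MRPL28 overlaps PGAP6 and MRPS6 overlaps SLC5A3 on the same strand, so that the split of reads is uncertain for both members in every library. MRPL28 read 48.6, 56.4 and 51.7 FPKM before and 49.7, 42.7 and 40.3 with GLUP, with overlap. MRPS6 read 30.1, 31.8 and 29.3 FPKM before and 28.6, 25.0 and 24.6 with GLUP, all lower. MRPS14 read 15.1, 15.2 and 14.7 FPKM before and 12.7, 14.1 and 13.7 with GLUP, also all lower. Their log2 differences were -0.24 ± 0.10, -0.22 ± 0.09 and -0.14 ± 0.06, and the limma adjusted p was 0.999 for each.

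Under the TEAD4KO label GLUP also changed 0 members by limma's adjusted p, where 0.0445% of all genes passed. At an unadjusted p under 0.05 there were 3, all lower, against 3.68% of all genes lower. The median log2 difference was -0.07 against -0.02 over all genes, and 0.0035 without replicate 16 with GLUP, so that its sign rested on that library. MRPS6 read 33.1, 41.4 and 37.6 FPKM before and 34.0, 30.7 and 29.6 with GLUP, with overlap (log2 difference -0.24 ± 0.09, limma adjusted p = 0.67). MRPL4 differed by -0.15 ± 0.06 (adjusted p = 0.758), all 3 GLUP libraries lying below the untreated ones, and MRPL14 by -0.19 ± 0.09 (adjusted p = 0.769) with overlap. Non-overlapping lower groups were found for 3 members, or 3.95% against 3.98%, and higher ones for 0, against 2.85%.

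The interaction, the effect of GLUP under the TEAD4KO label minus that in WT, passed for 0 members at an adjusted p under 0.05, against 0.00891% of all genes, and for 0 at an unadjusted p under 0.05, against 2.53%. The smallest p-values were those of MRPS33, MRPL22 and MRPL30. The interaction was 0.31 ± 0.16 for MRPS33 and 0.36 ± 0.19 for MRPL22 on the log2 scale, and the limma adjusted p was 1.0 for both. MRPS33 went from 18.9, 20.0 and 18.9 FPKM to 18.0, 17.8 and 15.9 with GLUP in WT and from 16.4, 19.2 and 19.0 to 21.6, 23.9 and 16.4 under the TEAD4KO label. A missed threshold does not show that the effects were equal.

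MRPL30 stood apart from all other members by its spread. Its SD within groups was 1.13 on the log2 scale, where the next largest, that of MRPS25, was 0.245 and the median over the members 0.12. Untreated WT libraries read 6.5, 7.72 and 11.6 FPKM, and those with GLUP 14.3, 25.5 and 3.53. Untreated libraries labelled TEAD4KO read 13.9, 25.0 and 10.9 FPKM and those with GLUP 1.22, 22.3 and 4.09. A gene entry without a symbol, ENSG00000241962, spans MRPL30 on the same strand (GRCh37, chr2:99757948-99939204) and was at 11.2 to 35.5 FPKM. It was low where MRPL30 was high, with a Spearman's rho of -0.895 over the 12 libraries, given as a description. The sum of both was 32.9 to 43.1 FPKM, with an SD within groups of 0.0801 on the log2 scale. The level of MRPL30 alone is therefore uncertain, and its interaction of -1.77 ± 1.02 (limma adjusted p = 1.0) is read with that limit. In all, 29 members overlapped another tested gene, 6 of them on the same strand, and 34 have annotated pseudogenes with which reads may be shared.

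**Figure D5:**
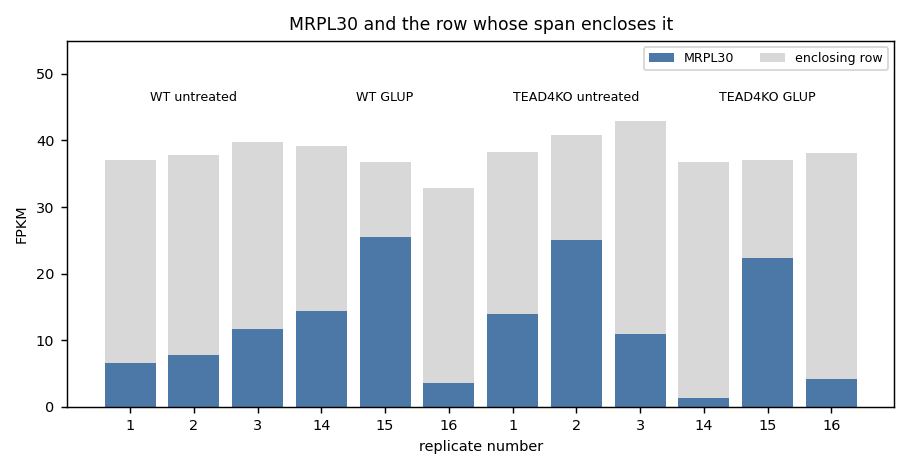
Bars stack the FPKM of MRPL30, in blue, and of the gene entry that spans it, in grey, for each of the 12 libraries. MRPL30 ranges from 1.22 to 25.5 FPKM while the full height of the bars stays between 32.9 and 43.1.

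Other nuclear genes of mitochondrial translation were followed in 7 lists. Of 91 tested genes of 95 listed, 6 were higher and 1 lower under the TEAD4KO label untreated, and 8 higher and 0 lower with GLUP, with median log2 differences of 0.09 and 0.08. The genes called higher were 6.59 and 8.79% of those tested, against 4.92 and 4.91% of all genes. After the GC and length correction 0 were higher and 1 lower untreated, against 1.1 and 0.641% of all genes, and 6 were higher with GLUP, or 6.59% against 2.58%. Mitoribosomal proteins that lack an MRP symbol had 2 higher of 5 in both comparisons. GADD45GIP1, a large subunit protein, had means of 69.3 ± 4.07 FPKM in WT and 116 ± 20.8 under the label (SD, n = 3 each), a log2 difference of 0.72 ± 0.14 (limma adjusted p = 0.0109). AURKAIP1, a small subunit protein, differed by 0.51 ± 0.11 (limma adjusted p = 0.0158). With GLUP they differed by 0.82 (adjusted p = 0.00498) and 0.50 (adjusted p = 0.0158). The correction took AURKAIP1 to 0.18 and 0.21 (limma adjusted p = 0.304 and 0.161), and GADD45GIP1 to 0.57 and 0.70 (adjusted p = 0.0716 and 0.0267).

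Over all genes 4.92% were higher and 0.499% lower untreated, and 4.91% and 0.935% with GLUP, and in short lists 1 call is a large share. Of 14 translation factors and protein-modifying enzymes, 1 was higher untreated (7.14%) and 0 passed with GLUP. The 1 was PDF, which removes the formyl group from new proteins (0.54 ± 0.14, limma adjusted p = 0.0403). TSFM, an elongation factor, missed the threshold untreated (0.29, limma adjusted p = 0.0905). Of 26 genes for ribosomal RNA modification and ribosome assembly 1 was higher and 1 lower untreated and 1 higher with GLUP, or 3.85% each. METTL17, an assembly factor, differed by 0.31 (limma adjusted p = 0.018), and MTERF4, which acts with the methyltransferase NSUN4 on the large subunit, by -0.45 ± 0.11 (adjusted p = 0.0386). The mitochondrial tRNA synthetases had 0 of 22 called untreated and 1 with GLUP (4.55%), YARS2 (0.37, limma adjusted p = 0.0184), while KARS1 was at 0.19 untreated (adjusted p = 0.0856).

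For mitochondrial transcription and RNA processing 1 of 13 was higher untreated and 2 with GLUP, or 7.69 and 15.4%, against 4.92 and 4.91% of all genes. POLRMT, the mitochondrial RNA polymerase, was called in both (0.25 and 0.29, limma adjusted p = 0.0421 and 0.0212), and TEFM was at 0.23 untreated (adjusted p = 0.135). The counts of the next lists stand against the same shares of all genes. Of 4 factors of translation activation and membrane insertion COX14 passed in both (0.47 and 0.53, limma adjusted p = 0.0219 and 0.0113), and OXA1L was at 0.18 untreated (adjusted p = 0.0909). Of 7 proteases 0 passed untreated and 1 with GLUP, CLPP (0.42, limma adjusted p = 0.00947), and LONP1 was at 0.22 untreated (adjusted p = 0.146). Among 8 nuclear regulators 1 was higher in each comparison, ESRRA (0.39 and 0.35, limma adjusted p = 0.0142 and 0.0219), whereas MYC was at 0.15 and 0.18 (adjusted p = 0.174 and 0.107). Of 13 genes on mitochondrial DNA, whose proteins these ribosomes make, 0 passed in either comparison. MT-ATP8 was at 0.20 ± 0.09 (limma adjusted p = 0.201) and MT-CO3 at 0.21 ± 0.09 (adjusted p = 0.214) untreated. After the GC and length correction POLRMT was at 0.08 and 0.19 (limma adjusted p = 0.5 and 0.0879) and ESRRA at 0.22 and 0.23 (adjusted p = 0.0818 and 0.0558), so that both lost both calls. The untreated calls of PDF, METTL17 and COX14 were lost too (limma adjusted p = 0.063, 0.0818 and 0.0934). The call of MTERF4 held (adjusted p = 0.0479), as did those of YARS2, COX14 and CLPP with GLUP (adjusted p = 0.0342, 0.0298 and 0.015), and MYC passed with GLUP at 0.24 (adjusted p = 0.0243).

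Similar nuclear-encoded complexes had values of the same order. Cytosolic ribosomal protein genes had 13 and 14 of 78 higher and medians of 0.22 and 0.20 in the 2 comparisons, and nuclear oxidative phosphorylation subunits 12 and 11 of 77 and medians of 0.16 and 0.16, beside 13 and 11 of 76 and medians of 0.16 and 0.19 for the members. As shares of each gene group these calls were 16.7 and 17.9%, 15.6 and 14.3%, and 17.1 and 14.5%, against 4.92 and 4.91% of all genes. After the GC and length correction these counts were 3 and 6, 1 and 6, and 3 and 3, or 3.85 and 7.69%, 1.3 and 7.79%, and 3.95 and 3.95%, against 1.1 and 2.58% of all genes. The difference between these gene groups was not tested.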

How the data were processed

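Gene-level FPKM values of 12 libraries were used as deposited, with 1 column a library and 0 columns left unmapped. The authors made them on an online cloud platform, and their processing notes name HISAT2, Cufflinks, RSEM and hg19. Versions, annotation and the order of these tools are not given in the sources used here. FPKM keeps no read totals, so depth is unknown, and length and GC trends between libraries remain in the values.

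Values were analysed as log2(FPKM + 1), so that changes of low genes are understated. A 4-group linear model over all 12 libraries was fitted with limma 3.58.1 (R 4.3.3, eBayes with trend) to the 11225 genes with a mean of at least 1 FPKM, two-sided, with Benjamini-Hochberg adjustment over all of them in each of 5 comparisons. A call was an adjusted p under 0.05. The scripts were tested on simulated data. A permutation of 3 against 3 libraries was not used.

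Ensembl identifiers were turned into symbols with a reference table (96.5% of genes). Positions, lengths and GC content came from GENCODE lifted to GRCh37 (98.7% of tested genes), and promoter sequence came from RefSeq. GC and length were corrected per library with splines of 5 degrees of freedom.

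Pairing was read from the correlation of deviations of same-numbered libraries from their group means. For GLUP libraries 14, 15 and 16 it was 0.106, 0.152 and 0.336, all over the limit of pairing, although 2 of the differently numbered pairs, at 0.134 and 0.116, were also over it. For untreated libraries 1, 2 and 3 it was -0.0569, 0.203 and -0.0149.

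Named members were the 8 called in both comparisons of the labels, the 5 of most negative mean difference, the 3 of highest and 3 of lowest level, the 3 of smallest p for GLUP in each label and for the interaction, the 5 of largest corrected difference among those called after correction and those nearest 1 FPKM, and for each list the 2 genes of smallest p untreated. Members, lists and rules were chosen with earlier results of these data known. Alternatives were a pseudocount of 0.1, no filter, a mean of at least 5 FPKM, median-ratio and quantile scaling, a fit to the compared groups alone, the replicate number as a block, the GC and length correction with and without it, a 2-fold limit, and leaving out each library. Leaving out both TEAD4KO libraries near WT was added after seeing the data.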

Additional observations from a re-analysis of the deposited data

How the results depend on the processing

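For the untreated comparison of the labels 14 members passed in either direction. The count was 8 with no filter, 8 with median-ratio scaling, 4 with the GC and length correction, 1 with that correction and the replicate block, 0 with a limit of 2-fold and 40 without both TEAD4KO libraries near WT. Leaving out 1 library gave 2 to 28. With GLUP 11 passed, and the count was 6 with no filter, 6 in a fit of only the groups compared, 20 with the replicate block, 3 with the GC and length correction, 4 with that correction and the replicate block, 0 with a limit of 2-fold, 47 without both libraries, and 3 to 35 without 1 library. Under the replicate block the untreated count was 20, but not all same-numbered untreated libraries deviated together. The counts for GLUP in each label and for the interaction stayed at 0 under every alternative run. No scaling moved the median over all genes by 0.1 or more on the log2 scale. The fit with no filter adds genes to the adjustment, and a fit of only the groups compared holds fewer libraries. The cause of these and the other shifts was not tested. Where no share of all genes is given for a fit, its count does not show a change particular to the members.

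Among the members named, signs changed only for ones that passed no test in the fit as reported. MRPS25 untreated was at 0.0192 with the GC and length correction, with or without the replicate block, and at -0.2263 to 0.1281 without 1 library. MRPL42 was at 0.067 untreated under both of these corrections, at -0.041 with GLUP under quantile scaling, and at -0.1643 to 0.1285 with GLUP without 1 library. MRPL50 was at 0.01 untreated and 0.0376 with GLUP without both TEAD4KO libraries near WT, and at -0.059 to 0.01 and -0.1167 to 0.0376 without 1 library. MRPS25 with GLUP passed the test without both of those libraries, at -0.3032. MRPL34 untreated had an adjusted p of 0.0705 (limma) with the GC and length correction and the replicate block, the highest over its alternatives, and MRPS17 was the 1 member that passed there. No model of read numbers could be fitted to FPKM, and depth behind each value is unknown.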
